A study of Mus musculus with 4 samples.

Results

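The genes described here are 42 mouse genes of the p53 pathway and of the apoptosis machinery, chosen as a named list by their known roles, out of 27998 genes in each of the 2 count tables. All 42 were found in both tables, and each had at least 1 unique molecular identifier (UMI, a tag that counts 1 captured RNA molecule) in the cells kept from each library. The list holds p53 itself and its ligase (2 genes), arrest, repair and stress targets (16), membrane proteins and death receptors (5), the BAX-type effectors (2), the BH3-only genes (6), the survival genes of the BCL2 family (3) and the caspase machinery (8).

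The transcription factor p53, product of Trp53, is kept at a low protein level by the ubiquitin ligase MDM2, whose own gene is a p53 target. When DNA is damaged, ribosome production fails or oncogenes are active, p53 protein accumulates and raises the transcription of genes that stop the cell cycle, such as Cdkn1a, repair DNA, or open the way to cell death. In mitochondrial apoptosis, BH3-only proteins neutralise the survival proteins BCL2, BCL2L1 and MCL1 and engage BAX and BAK1, cytochrome c leaves the mitochondria, and APAF1 assembles the complex that activates caspase 9. Since p53 is controlled mainly at the level of its protein, the level of Trp53 RNA is not a measure of p53 activity.

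The data were single-cell RNA counts from pancreas of mouse embryos on embryonic day 15.5, when acinar (enzyme-producing), trunk or ductal, and endocrine cells are forming. Control embryos carried OGT flox/flox without the recombinase, and their cells were sorted on E-cadherin, a surface protein of epithelium, by the series' design text, while the protocol in the sample labels names GFP for both groups. Knockout embryos carried PdxCre, OGT flox/flox and CAG GFP, and their cells were sorted on GFP: Pdx1 drives the recombinase in the early pancreatic epithelium, and it removes Ogt, whose product attaches the sugar O-GlcNAc to proteins, while switching on the GFP reporter. Both groups therefore carried the floxed allele, and genotype cannot be told apart from the sort. How many embryos were pooled for each library was not stated. Each genotype had 2 labelled samples, but these were sequencing runs of 1 library and their counts stood together in 1 table, so each genotype was 1 library, no test between genotypes was possible, and no p-value is given. All intervals below are exact 95% intervals that cover counting error only, not the variation between embryos. Those of levels and ratios also leave out variation between cells, so they are too narrow where cells of a class differ.

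The control library held 941 barcodes and 11973979 UMIs, the knockout library 617 barcodes and 11064540 UMIs, and no barcode was shared. After filtering, 919 control and 555 knockout cells remained. Cells were named by marker genes after clustering, since no annotation by the authors was used. Acinar-like cells numbered 50 in the control library (49 of them in cluster 13) and 95 in the knockout library (all in cluster 6), trunk/ductal-like cells (cluster 9) 35 and 41, and endocrine-like cells 20 and 42. Although the samples were labelled as pancreatic epithelium, 799 of the 919 control cells were leukocyte-like against 40 of 555 knockout cells. The knockout library also held 142 mesenchyme-like, 66 mesothelium-like and 28 lymphoid-like cells, and 88 cells of cluster 8, led by Cym, which had more trunk/ductal than other markers but no control counterpart. Levels are given as CPM, a gene's UMIs scaled to a total of 1000000 UMIs of all genes in the same class and library. Each UMI stood for the end of 1 transcript, so CPM was not divided by gene length; how well a gene is captured still enters an order of genes by CPM.

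Several measures differed between the libraries beside the members. Ogt itself was at 37.1 CPM (27.4 to 49.2) in control and 37.7 (31.1 to 45.3) in knockout acinar-like cells, and at 123 (76.0 to 188) and 29.5 (18.3 to 45.1) in endocrine-like cells. Which exons are deleted was not stated, and tags outside them would not be lost, so these levels do not check the labels. The 14 leukocyte markers summed to 3538 CPM in control and 486 in knockout acinar-like cells, to 3544 and 458 in trunk/ductal-like cells and to 3565 and 522 in endocrine-like cells, and none of the 14 was at 0 in any of the 6. The 17 mesenchyme markers summed to 243 and 972 CPM in acinar-like cells (Pdgfra and Nkx3-2 at 0 in control, Nkx3-2 in knockout), to 1617 and 2141 in trunk/ductal-like cells (9 and 1 markers at 0) and to 549 and 1441 in endocrine-like cells (9 and 2 at 0). Granulocyte and mast cell markers (10 genes) summed to 44.1 and 310 CPM in acinar-like, 44.4 and 302 in trunk/ductal-like and 76.0 and 356 in endocrine-like cells, and liver markers (7 genes) to 23.2 and 120, 50.4 and 44.9, and 23.4 and 325 CPM. The part of these other cells' RNA in the ratios below was not tested unless a value is given beside them. Xist, transcribed from the inactive X chromosome, was detected in 20% of control and 98.9% of knockout acinar-like cells and in 28.6% and 100% of trunk/ductal-like cells, and Y-linked genes in 84% and 95.8% of acinar-like and 85.7% and 90.2% of trunk/ductal-like cells.

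To show candidate p53 elements in these genes, the RefSeq promoter windows (250 bases before to 50 bases after an annotated start, build GRCm38.p6) of 36 of the 42 genes were searched for the p53 response element, a pair of 10-base half-sites with a fixed C at position 4 and G at position 7, separated by 0 to 13 bases. The half-site reads the same on both strands. A pair with at most 1 mismatch over its 20 positions stood in 3 of the members' 54 windows (5.56%), against 206 of all 32851 windows (0.627%), and the 3 genes were Cdkn1a, Ccng1 and Rps27l, all long-known p53 targets. They are printed 5′ to 3′ on the strand of the gene with 40 bases on either side, with the 2 half-sites in capitals.
Cdkn1a chr17:29090866-29090977 (+): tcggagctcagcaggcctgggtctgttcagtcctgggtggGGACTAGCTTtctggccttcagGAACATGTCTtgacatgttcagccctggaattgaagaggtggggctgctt
Ccng1 chr11:40755422-40755521 (-): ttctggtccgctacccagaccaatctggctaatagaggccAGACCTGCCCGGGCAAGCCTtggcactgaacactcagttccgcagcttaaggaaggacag
Rps27l chr9:66946256-66946355 (+): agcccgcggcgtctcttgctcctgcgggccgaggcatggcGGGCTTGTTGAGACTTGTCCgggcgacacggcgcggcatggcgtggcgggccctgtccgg
Only the best pair of a window is marked. The Cdkn1a pair had 0 mismatches and a spacer of 12 bases, and ended 39 bases before the gene (chr17:29090976-29100727). The 10 bases directly after its second half-site form another half-site with 1 mismatch, so a pair without spacer also met the limit there. The other Cdkn1a window, which lies inside the gene, had 5 mismatches at best. The Ccng1 pair had 1 mismatch and no spacer and lay 151 bases before the gene (chr11:40748552-40755311). The Rps27l pair, also with 1 mismatch and no spacer, began 210 bases inside the gene (chr9:66946086-66949516), where none of its 6 annotated transcripts has an exon. The knockout over control ratios of the 3 genes in acinar-like cells, given with their intervals further on, lay on both sides of 1: 1.31 for Cdkn1a, 0.571 for Ccng1 and 0.874 for Rps27l. With up to 2 mismatches Bax and Sesn1 were added (9.26% of the members' windows, 4.09% of all). The windows of Pmaip1, Perp, Tnfrsf10b, Trp53inp1, Zmat3 and Bik were not analysed here. A match is a description of the sequence and not evidence of binding in these cells, and no match says only that the window lacks these letters.

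Summed over all 42 genes, the level was 3832 CPM in control and 3819 CPM in knockout acinar-like cells, and 2985 and 3364 CPM in trunk/ductal-like cells. Rps27l alone held 1867 and 1631 CPM of the acinar-like and 784 and 969 CPM of the trunk/ductal-like sums. The sums therefore lean on 1 gene and do not show whether the other members were level. Over all kept cells of the control library the 5 highest members were Rps27l (753 CPM), Btg2 (275), Cycs (265), Bax (236) and Mcl1 (166). In the knockout library they were Rps27l (1075 CPM), Cycs (319), Btg2 (259), Bax (235) and Cdkn1a (162). These whole-library levels mix the cell types, of which the libraries held very different shares, so the genotypes are compared only within a class below.

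**Figure D1:**
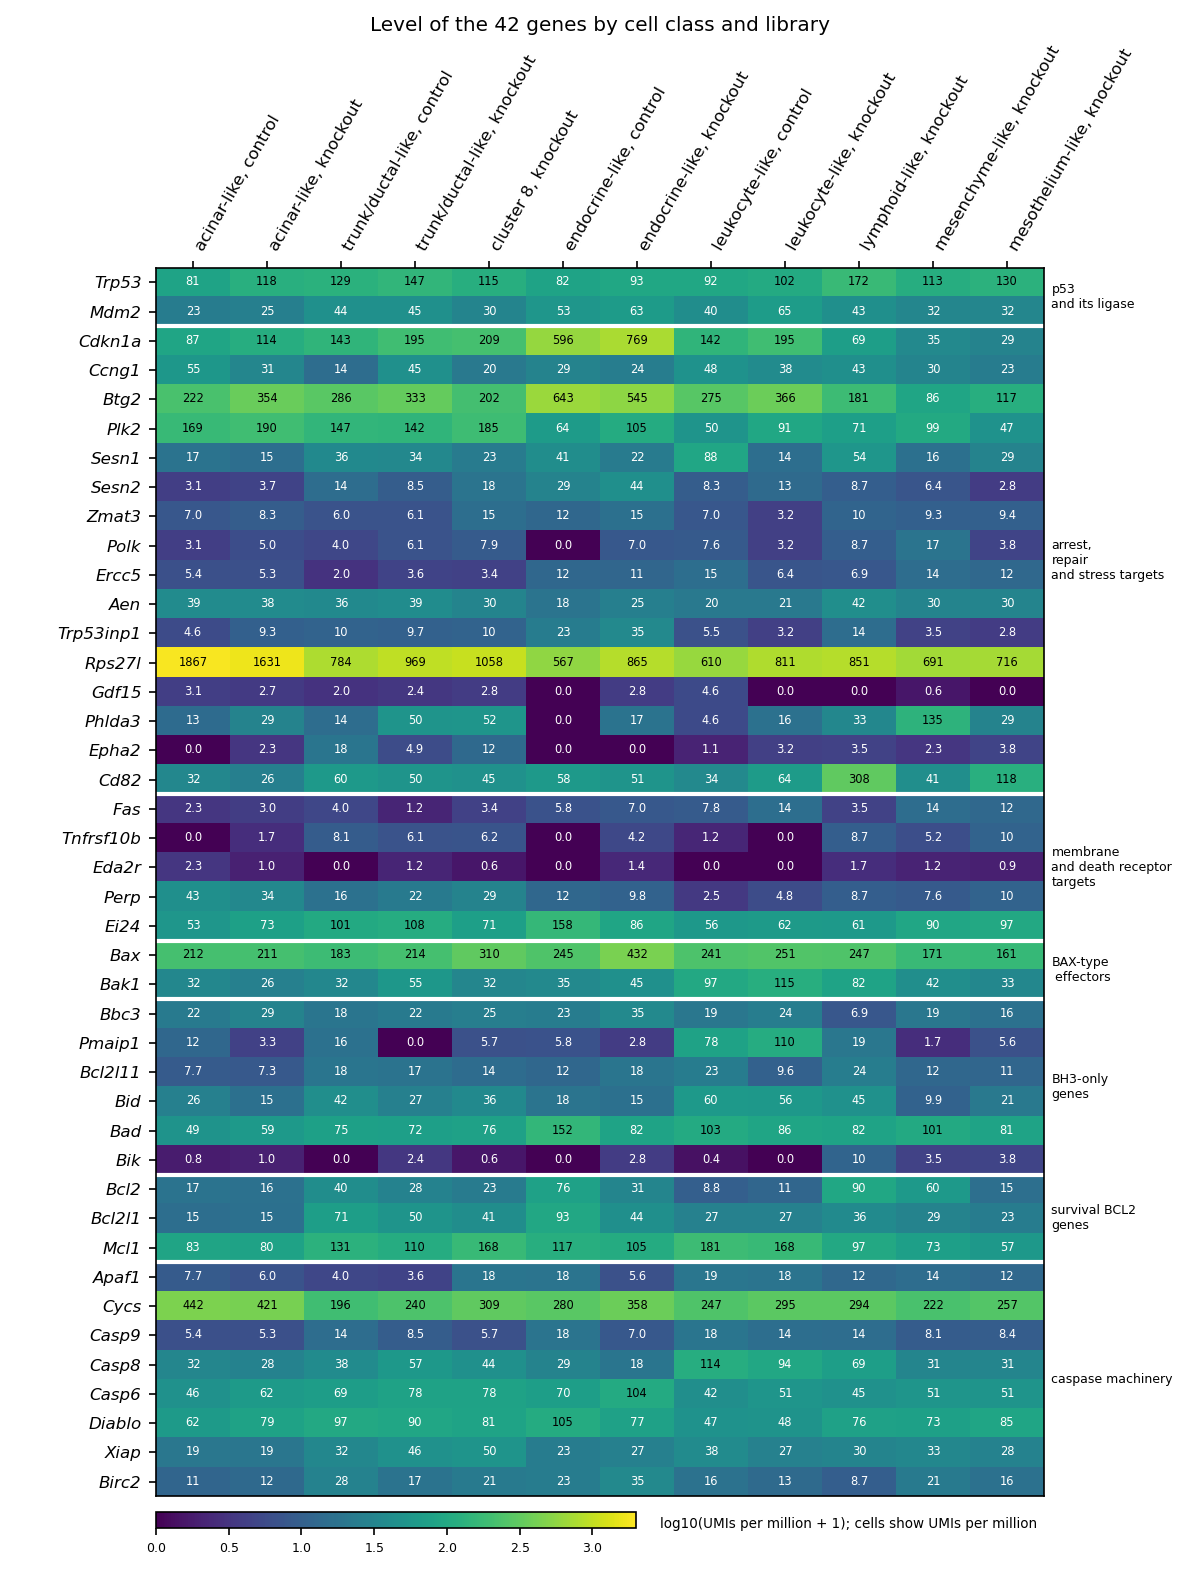
Level of each of the 42 genes (rows, grouped by role) in each cell class with at least 20 cells in a library (columns), in CPM, with colour on a log10 scale. Rps27l was the highest member in each acinar-like, trunk/ductal-like and leukocyte-like column, Cdkn1a stood out in the endocrine-like columns (596 and 769), and Eda2r, Gdf15, Bik and Tnfrsf10b stayed near 0 in most columns.

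Within acinar-like cells, most members were at like levels in the 2 libraries. Of the 42 genes, 34 had at least 20 UMIs over both libraries, and 3 of these were at least 1.5-fold higher in the knockout library (Phlda3, Trp53inp1 and Btg2), 3 at least 1.5-fold lower (Pmaip1, Ccng1 and Bid) and 28 between. Over all 9603 genes with 20 UMIs, 14.9% were higher and 12.8% lower by that fold, so the members' shares were near those of genes at large. The members' median log2 ratio was -0.02, against 0.04 over all genes.

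Trunk/ductal-like cells gave a like picture: 28 members were measured, of which 3 were higher (Phlda3, Ccng1 and Bak1) and 2 lower (Birc2 and Bid), where 13.7% of all 7072 genes were higher and 13.2% lower. The median log2 ratio was 0.14 for the members and 0.03 for all genes. Over the alternative settings the trunk/ductal-like counts ran from 1 to 8 higher and from 0 to 6 lower. Casp8 lay just inside the 1.5-fold limit (ratio 1.49) and Bid just outside it (0.631). In endocrine-like cells, with only 20 control cells, 25 members were measured, 6 higher and 5 lower, where 23.0% of all 6000 genes were higher and 17.2% lower. Their median log2 ratio was 0.27, against 0.04 for all genes, and the counts ran from 0 to 8 higher and from 2 to 9 lower over the alternative settings.

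**Figure D2:**
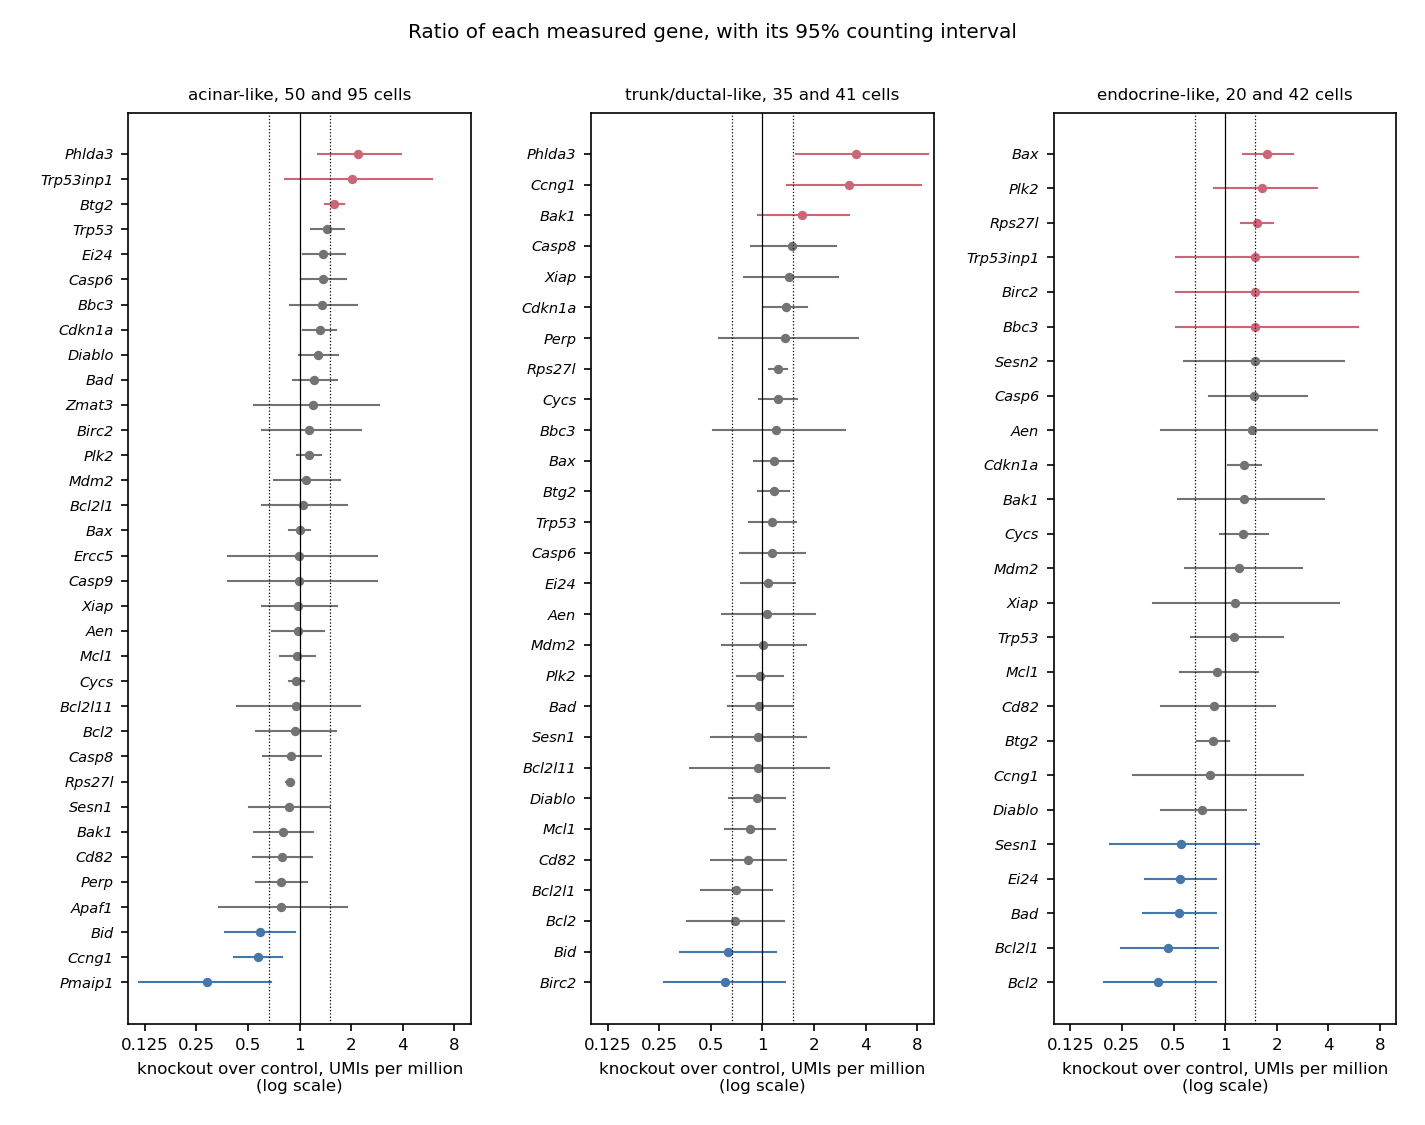
Ratio of the knockout to the control level (x axis, log scale) of each member with at least 20 UMIs over both libraries in acinar-like, trunk/ductal-like and endocrine-like cells, with exact 95% counting intervals; dotted lines mark 1.5-fold. Most points lie between the dotted lines, and Phlda3 has the highest ratio in acinar-like and trunk/ductal-like cells (2.18 and 3.53).

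Trp53 was detected in each class shown. In acinar-like cells it was at 81.2 CPM (66.4 to 98.3) in the control and 118 CPM (106 to 131) in the knockout library, a ratio of 1.45 (1.17 to 1.83). In trunk/ductal-like cells the levels were 129 and 147 CPM (ratio 1.1, 0.834 to 1.57), in endocrine-like cells 81.8 and 92.8 CPM (1.13, 0.631 to 2.19) and in leukocyte-like cells 91.7 and 102 CPM (1.11, 0.851 to 1.44). Thus the knockout level was the higher one in each of the 4 classes, with an interval above 1 in acinar-like cells only; whether the classes differ in this was not tested. In the classes measured in the knockout library alone, Trp53 was at 115 CPM in cluster 8, 113 in mesenchyme-like, 130 in mesothelium-like and 172 in lymphoid-like cells, the highest value, whose interval (140 to 209) overlapped that of trunk/ductal-like cells (122 to 176).

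Mdm2, the ligase that marks p53 for degradation, stayed low. It was at 23.2 and 25.4 CPM in control and knockout acinar-like cells (ratio 1.09, 0.708 to 1.73), at 44.3 and 44.9 in trunk/ductal-like cells (1.01, 0.582 to 1.8) and at 52.6 and 63.3 in endocrine-like cells (1.20, 0.581 to 2.80). The knockout values in the other classes ran from 29.5 CPM in cluster 8 through 31.9 in mesothelium-like, 32.0 in mesenchyme-like and 43.4 in lymphoid-like cells to 65.5 in leukocyte-like cells. Acinar-like cells were the lowest class for Mdm2 in both libraries. Leukocyte-like cells were at 40.3 CPM in the control library, a ratio of 1.62 (1.15 to 2.24), which was 1.09 when the 5 cells with the highest Mdm2 level were left out of each library. Those 5 cells were a larger share of the 40 knockout than of the 799 control cells, which by itself can lower the ratio.

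**Figure D3:**
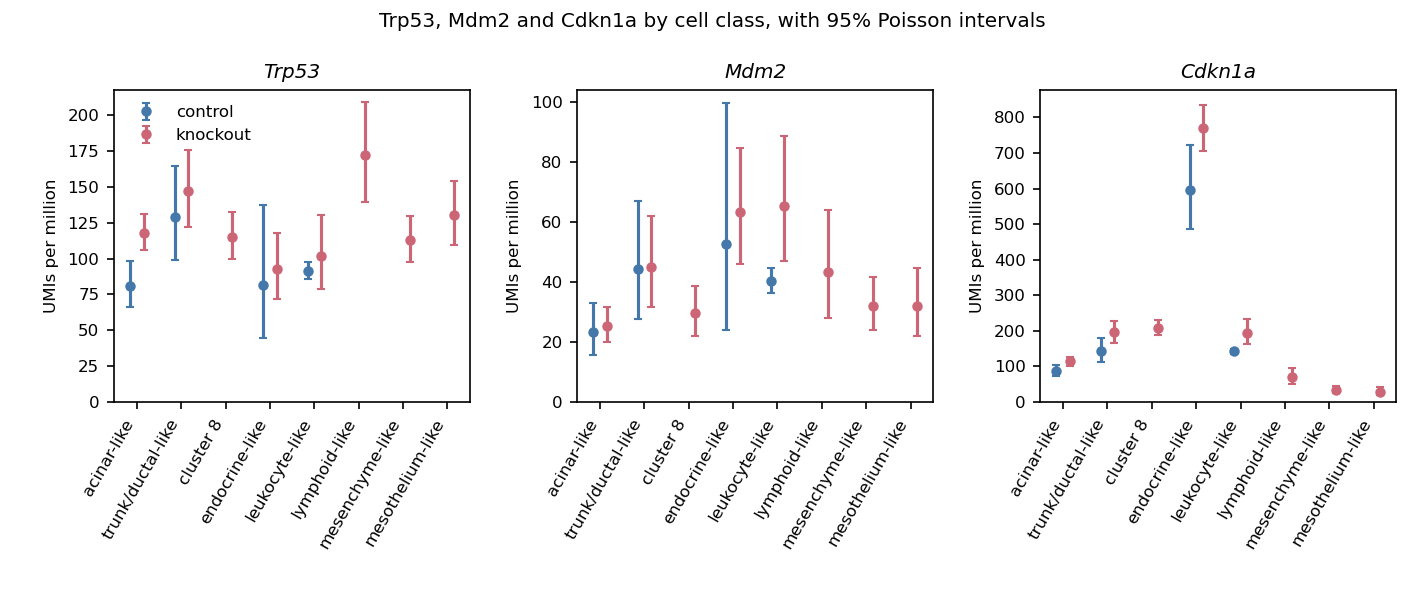
Levels of Trp53, Mdm2 and Cdkn1a (y axes, CPM) in each cell class of the control (blue) and knockout (red) library, with exact 95% Poisson intervals. Trp53 and Mdm2 vary by at most 2.58-fold between classes of a library, whereas Cdkn1a runs from 29.1 in mesothelium-like to 769 in endocrine-like cells of the knockout library.

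Cdkn1a encodes p21, the inhibitor of cyclin-dependent kinases that carries much of the p53-dependent arrest and that also rises without p53 as cells leave the cycle to differentiate. Its level differed far more between cell classes than between libraries. Acinar-like cells had 87.4 CPM (72.0 to 105) in the control and 114 CPM (102 to 127) in the knockout library, a ratio of 1.31 (1.05 to 1.63). Trunk/ductal-like cells had 143 and 195 CPM (1.37, 1.03 to 1.83), endocrine-like cells 596 and 769 CPM (1.29, 1.04 to 1.61) and leukocyte-like cells 142 and 195 CPM (1.37, 1.13 to 1.65). None of the 4 ratios reached 1.5, and each interval lay just above 1. Means of cells thinned to equal depth, given further on, were near level between libraries in all but trunk/ductal-like cells. The ratios also moved with processing. Without the 5 highest cells of each library they were 1.65 in acinar-like, 1.69 in trunk/ductal-like, 2.05 in endocrine-like and 0.919 in leukocyte-like cells. These 5 cells were a larger share of the control cells in the first 3 classes (50 against 95, 35 against 41 and 20 against 42). In leukocyte-like cells (799 against 40) they were a larger share of the knockout cells. Unequal shares by themselves can raise the first 3 ratios and lower the last, and their part was not tested. The endocrine-like ratio was 2.96 with each library clustered alone, and the leukocyte-like ratio was 0.967 at clustering resolution 2.

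Among the classes of the knockout library the order was endocrine-like (769 CPM), cluster 8 (209), trunk/ductal-like and leukocyte-like (both 195), acinar-like (114), lymphoid-like (69.5), mesenchyme-like (34.9) and mesothelium-like (29.1). Endocrine-like cells were 3.68-fold (3.22 to 4.21) above the next class in the knockout library and 4.17-fold (3.05 to 5.72) above it in the control library. These intervals are too narrow, since Cdkn1a varied between endocrine-like cells well beyond counting error, as given further on. Cluster 8, trunk/ductal-like and leukocyte-like cells did not differ beyond their intervals, nor did mesenchyme-like and mesothelium-like cells. In the knockout library 21 of the 22 mitosis genes were at least 1.5-fold lower in endocrine-like than in acinar-like cells, where 17.1% of all genes were lower. Outside endocrine-like cells, where they summed to 553 CPM, the mitosis genes did not follow the order of Cdkn1a: they summed to 1728 CPM in cluster 8, 2271 in trunk/ductal-like, 1736 in acinar-like, 1271 in mesenchyme-like and 2184 in mesothelium-like cells.

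To compare cells of different depth, each cell was thinned at random to 5000 UMIs. The thinning was a single random draw, and the variation between draws was not measured. A Cdkn1a UMI was then found in 16 of 48 control acinar-like cells (33.3%, 20.4 to 48.4) and in 39 of 95 knockout acinar-like cells (41.1%, 31.1 to 51.6), where the unthinned shares were 68.0% and 86.3% at median depths of 23318 and 31391 UMIs. Thinned shares were 40% and 56.1% in trunk/ductal-like cells, 55.7% in cluster 8, 86.7% (13 of 15 cells) and 61.9% (26 of 42) in endocrine-like cells, and 41% and 43.6% in leukocyte-like cells. Mean thinned Cdkn1a UMIs per control and knockout cell were 0.479 and 0.505 in acinar-like and 0.943 and 1.24 in trunk/ductal-like cells. They were 3.40 and 3.62 in endocrine-like and 0.757 and 0.769 in leukocyte-like cells. Each cell counts alike in these means, and cells under 5000 UMIs were left out. No class is known to lack Cdkn1a; the lowest share, 13.6% (6.43 to 24.3), was that of mesothelium-like cells, with a median depth of 14746 UMIs.

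The spread between cells differed by class. In acinar-like cells the variance of thinned counts was 1.15 times the mean in the control and 1.13 times in the knockout library, near the value of 1 that random sampling of a shared level gives, and the highest cell had 4 UMIs. The ratio of variance to mean in trunk/ductal-like cells was 2.55 and 2.36. In endocrine-like cells it was 4.66 in the control (15 cells deep enough) and 10.8 in the knockout library (42 cells). Of the 42 knockout endocrine-like cells, 16 (38.1%) had no Cdkn1a UMI, 15 had 3 or more, and 1 had 28; a Poisson count with their mean of 3.62 would leave 2.68% of cells at 0. The high class level therefore came unevenly from the cells. Before thinning, the 5 cells with the most Cdkn1a UMIs held 77.5% of the class's total in the control and 51.2% in the knockout library. Such a share is not particular to this class. It was 57.75% and 49.1% in trunk/ductal-like cells and 45.1% in control acinar-like cells. In knockout lymphoid-like cells it was 57.5%, where the ratio of variance to mean was 1.195.

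**Figure D4:**
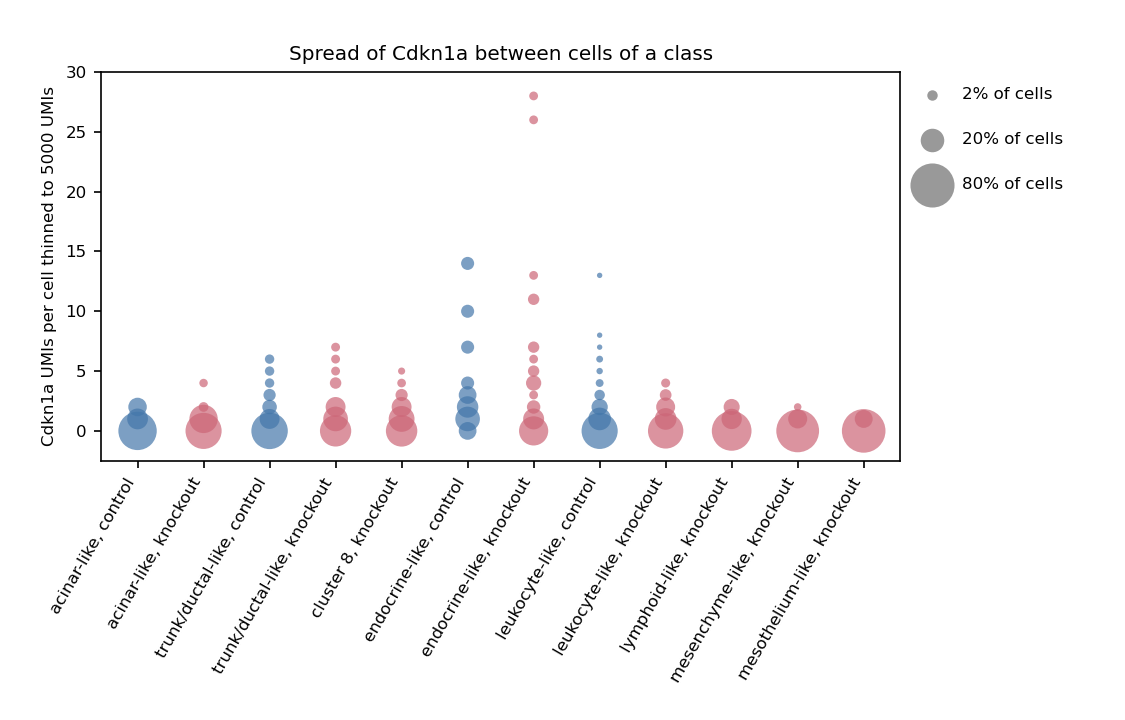
Cdkn1a UMIs per cell after thinning to 5000 UMIs (y axis) by class and library; the area of a disc grows with the share of cells at that value, blue for control and red for knockout. Most classes sit at 0 to 4, with a tail in endocrine-like cells up to 14 in the control and 28 in the knockout library.

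Neurog3, the transcription factor of endocrine progenitors, split these cells in a comparison chosen after the values were seen. Knockout endocrine-like cells with at least 1 thinned Neurog3 UMI had 6.94 ± 8.78 Cdkn1a UMIs (mean ± SD over 16 cells, median 4, range 0 to 28). The 26 without Neurog3 had 1.58 ± 2.52 (median 1, range 0 to 11). In the control library the means were 4 ± 4.24 in 9 cells with Neurog3 and 2.50 ± 3.73 in 6 without. Hormone UMIs went the other way, with medians of 5 and 80 in the knockout cells with and without Neurog3. Cells with Neurog3 were 9 of 15 in the control but 16 of 42 in the knockout library. The endocrine-like ratios between libraries therefore compare unlike mixtures, and the part of this in them was not tested.

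The other p53 targets were compared between cells with and without Cdkn1a of the same class. Summed over 24 other targets among the members, knockout acinar-like cells with 1 to 2 Cdkn1a UMIs had 14.9 ± 4.26 thinned UMIs (37 cells), and those with none 13.6 ± 4.45 (56 cells). Control acinar-like cells had 15.9 ± 4.84 (16 cells) and 13.8 ± 4.03 (32 cells), and knockout endocrine-like cells had 11.7 ± 3.48 with 3 or more Cdkn1a UMIs (15 cells) and 11.4 ± 4.63 with none (16 cells). Knockout trunk/ductal-like cells had 11.2 ± 2.94 with 1 to 2 Cdkn1a UMIs and 9.39 ± 3.48 with none (18 cells each), and control leukocyte-like cells 9.55 ± 3.84 with 3 or more (55 cells) and 7.93 ± 3.21 with none (429 cells). The sign was the opposite in cluster 8, at 10.3 ± 3.83 with 1 to 2 UMIs (41 cells) and 10.9 ± 3.82 with none (39 cells), and in mesenchyme-like cells of the knockout library, at 7.58 ± 2.50 (24 cells) and 7.83 ± 2.81 (118 cells). Each of these differences was smaller than the SD between cells, which does not gauge a difference of means, and none was tested. Rps27l, at 1631 CPM in knockout acinar-like cells, was the largest part of the acinar-like sums. Single targets went both ways there: with and without Cdkn1a, knockout acinar-like cells had means of 2.54 and 1.70 UMIs for Btg2, and 0.946 and 1.23 for Bax. Mitosis genes summed to 7.95 ± 6.60 and 7.55 ± 6.02 UMIs in knockout acinar-like cells with and without Cdkn1a, and to 14.4 ± 8.64 and 7.69 ± 6.95 in control ones, so in the control library the acinar-like cells with Cdkn1a held the more mitosis UMIs.

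Rps27l, a ribosomal protein-like p53 target, was the most abundant member. It was at 1867 CPM in control and 1631 CPM in knockout acinar-like cells (ratio 0.874, 0.832 to 0.918), at 784 and 969 in trunk/ductal-like cells (1.24, 1.09 to 1.40) and at 567 and 865 in endocrine-like cells (1.53, 1.23 to 1.91). Acinar-like cells were above each other class shown in both libraries, by 2.38-fold over trunk/ductal-like cells in the control library and by 1.54-fold over cluster 8 in the knockout library. Its near copies Rps27 and Rps27rt, at 3640 and 535 CPM over all control cells, may share tags with it.

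Btg2, an antiproliferative early response gene that p53 raises, was at 222 CPM in control and 354 CPM in knockout acinar-like cells, a ratio of 1.59 (1.40 to 1.82) that rests on 287 and 1060 UMIs. It was near level in trunk/ductal-like (286 and 333 CPM) and endocrine-like cells (643 and 545 CPM), which were its highest class in both libraries, as for Cdkn1a. Btg2 is also an immediate early gene of cell dissociation. The 20 immediate early and heat shock genes summed to 4178 CPM in control and 4024 CPM in knockout acinar-like cells. Of 19 measured, 1 was higher and 7 lower, where 14.9% of all genes were higher and 12.8% lower, and their part in the Btg2 level was not tested. Plk2, a kinase of the stress response, was highest in acinar-like cells (169 and 190 CPM, ratio 1.13, 0.965 to 1.33), followed in the knockout library by cluster 8 (185).

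Ccng1, cyclin G1, lay on opposite sides in the 2 epithelial classes. In acinar-like cells it was lower in the knockout library, at 54.9 and 31.4 CPM (ratio 0.571, 0.415 to 0.789, from 71 and 94 UMIs). In trunk/ductal-like cells it was higher, at 14.1 and 44.9 CPM (3.18, 1.40 to 8.46), but from only 7 control UMIs against 37. Leukocyte markers were also more abundant in control than in knockout acinar-like cells, as given above; Ccng1 stood at 15.5 UMIs per 1000 leukocyte marker UMIs in control acinar-like cells and at 1.93 in the leukocyte-like cells themselves. In the other classes of the knockout library it ran from 20.4 CPM in cluster 8 to 43.4 in lymphoid-like cells.

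Phlda3, a p53 target whose product blocks AKT at the membrane, was higher in the knockout library in both classes: 13.1 and 28.7 CPM in acinar-like (ratio 2.18, 1.29 to 3.92) and 14.1 and 49.8 CPM in trunk/ductal-like cells (3.53, 1.57 to 9.32, from 7 and 41 UMIs). Leaving out the 5 highest cells of each library, a larger share of the fewer control cells, gave 3.04 and 10.7. Cluster 8 was at 51.7 CPM and mesenchyme-like cells of the knockout library at 135 CPM, the highest class. Since mesenchyme markers were also higher in knockout acinar-like cells (13 of 14 measured at least 1.5-fold, against 14.9% of all genes), Phlda3 was set against them. Phlda3 made 54.1 UMIs per 1000 mesenchyme marker UMIs in control and 29.5 in knockout acinar-like cells, 8.73 and 23.2 in trunk/ductal-like cells, and 8.15 in mesenchyme-like cells of the knockout library. The part of mesenchyme RNA in the 2 ratios was not tested.

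The other arrest and stress targets had few UMIs in epithelial cells. Trp53inp1, a p53-induced nuclear protein that promotes autophagy and death, was at 4.64 and 9.34 CPM in acinar-like cells, from 6 and 28 UMIs, and its interval reached below 1 (ratio 2.01, 0.818 to 5.95). Endocrine-like cells were again its highest class (23.4 and 35.1 CPM), as they were for Sesn2, the leucine-sensing sestrin (29.2 and 43.6 CPM). The control values rest on 4 Trp53inp1 and 5 Sesn2 UMIs, each in 2 of 20 cells. Their ratios to the second class had intervals that included 1 (0.460 to 10.8 and 0.518 to 7.58). In the knockout library these intervals lay above 1 (1.11 to 6.49 and 1.46 to 4.21). Cd82, a tetraspanin, peaked in lymphoid-like cells of the knockout library (308 CPM), 2.60-fold (2.06 to 3.3) above mesothelium-like cells (118), with 25.7 to 60.5 CPM in the epithelial classes. Aen, Sesn1, Zmat3 and Ercc5 were between 2.02 and 40.9 CPM in the epithelial-like classes, with acinar-like ratios from 0.863 to 1.20. Polk and Gdf15 had fewer than 20 UMIs in each epithelial comparison, and Epha2 was at 18.1 CPM in control trunk/ductal-like cells (9 UMIs), 12.5 in cluster 8 and 0 in control acinar-like cells.

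The membrane targets and death receptors split into 3 receptors with few UMIs, and Perp and Ei24. Fas, Tnfrsf10b (the mouse TRAIL receptor) and Eda2r each had under 20 UMIs in acinar-like, trunk/ductal-like and endocrine-like cells. The highest Fas level was 14.4 CPM, in knockout leukocyte-like cells, from 9 UMIs. Eda2r, which is X-linked, had 3 UMIs in the acinar-like cells of either library and reached no more than 2.32 CPM in any class and library with 20 cells. Perp, a desmosome-associated p53 target, was at 43.3 and 33.7 CPM in acinar-like cells, 16.1 and 21.8 in trunk/ductal-like cells and 29.0 in cluster 8. Endocrine-like cells, at 11.7 and 9.84 CPM, were near mesothelium-like (10.3), lymphoid-like (8.69) and mesenchyme-like cells (7.55), and leukocyte-like cells were at 2.50 and 4.79. Ei24, a protein of the endoplasmic reticulum, was at 53.4 and 73.4 CPM in acinar-like cells (ratio 1.38, 1.05 to 1.83) and at 158 and 85.8 CPM in endocrine-like cells (0.544, 0.340 to 0.890).

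Bax, which permeabilises the outer mitochondrial membrane, was level between the libraries in acinar-like cells: 212 and 211 CPM, ratio 0.998 (0.865 to 1.15). In trunk/ductal-like cells it was at 183 and 214 CPM (1.17, 0.899 to 1.52) and in endocrine-like cells at 245 and 432 CPM (1.76, 1.27 to 2.49), where 42 and 307 UMIs were counted. The interval of the acinar-like ratio and that of the endocrine-like ratio did not overlap, though the difference between the classes was not tested. Bak1, the other effector, was at 32.5 and 26.0 CPM in acinar-like and 32.3 and 54.6 CPM in trunk/ductal-like cells (1.69, 0.939 to 3.21), and was highest in leukocyte-like cells (96.8 and 115 CPM). Bak1 overlaps Ggnbp1 on the opposite strand.

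Among the BH3-only genes, which sense stress and start mitochondrial death, Bad was at 48.7 and 59.4 CPM in acinar-like cells (ratio 1.22, 0.91 to 1.65) and Bbc3, which encodes PUMA, was at 21.6 and 29.4 CPM (ratio 1.36, 0.877 to 2.16). Bid, which links death receptors to mitochondria, was at 26.3 and 15.3 CPM in acinar-like (0.584, 0.367 to 0.938) and 42.3 and 26.7 CPM in trunk/ductal-like cells (0.631, 0.331 to 1.21). It was higher in leukocyte-like cells (60.1 and 55.9 CPM). Pmaip1, which encodes NOXA, had the lowest acinar-like ratio of the members, 0.288 (0.116 to 0.684), at 11.6 and 3.34 CPM from 15 and 10 UMIs.

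Pmaip1 was a leukocyte gene in these libraries, at 78.3 and 110 CPM in leukocyte-like cells, and in trunk/ductal-like cells it had 8 UMIs in the control library and 0 in the knockout library. Per 1000 leukocyte marker UMIs it had 3.28 UMIs (1.84 to 5.41) in control acinar-like cells and 3.18 (2.96 to 3.42) in control leukocyte-like cells, the same proportion within counting error, and 6.87 and 5.48 in the knockout library. Bid did not keep that proportion: it had 7.43 UMIs per 1000 in control acinar-like and 2.44 in control leukocyte-like cells. The part of leukocyte RNA in the 2 acinar-like ratios was not tested. Bcl2l11, which encodes BIM, was at 7.73 and 7.34 CPM in acinar-like cells, and Bik, with 1 and 3 UMIs there, was under the floor in all 4 comparisons.

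The survival genes were level between libraries in acinar-like cells: Mcl1 was at 82.7 and 79.7 CPM (ratio 0.964, 0.764 to 1.22), Bcl2 at 17.0 and 16.0 and Bcl2l1 at 14.7 and 15.3. All 3 were lower in knockout than in control trunk/ductal-like cells without reaching 1.5-fold, Bcl2l1 at 70.6 and 49.8 CPM (0.705, 0.438 to 1.141). In endocrine-like cells Bcl2 was at 76.0 and 30.9 CPM (0.407, 0.196 to 0.880) and Bcl2l1 at 93.5 and 43.6 CPM (0.466, 0.247 to 0.912), from 13 and 16 control UMIs; at clustering resolution 2 the Bcl2l1 ratio was 0.991. All 13 Bcl2 UMIs stood in 4 of the 20 control cells. Bad, which antagonises both, was also lower there, at 152 and 81.5 CPM (0.537, 0.333 to 0.888). These endocrine-like members, Bax, Rps27l and Ei24 were named after their values were seen.

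All 8 genes of the caspase machinery were measured in acinar-like cells, and none reached 1.5-fold. Cycs, the gene of cytochrome c, was at 442 and 421 CPM (ratio 0.954, 0.863 to 1.05), Diablo, which relieves caspases of their inhibitors, at 61.9 and 79.4 (1.28, 0.992 to 1.68) and Casp6, an executioner, at 45.6 and 62.4 (1.37, 1.02 to 1.87). Casp8, the caspase of death receptors, was at 31.7 and 28.4 CPM, and Apaf1 and Casp9, which form the activating complex, were at 7.73 and 6.01 CPM (Apaf1) and 5.41 and 5.34 CPM (Casp9). Casp9 overlaps the acinar enzyme genes Ctrc and Cela2a on the opposite strand, as Bid overlaps Bcl2l13, Bad Gpr137 and Diablo B3gnt4. Whether the counting used strand was not stated, so these counts are less certain. Sesn2 overlaps Gm12981 on the same strand, so its counts are less certain too.

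Xiap, an X-linked caspase inhibitor, was at 19.3 and 19.0 CPM in acinar-like cells (0.984, 0.605 to 1.64) and at 32.3 and 46.1 in trunk/ductal-like cells (1.43, 0.779 to 2.75), although Xist detection differed between the libraries as given above. Birc2, an inhibitor of apoptosis that acts in receptor signalling, was at 28.2 and 17.0 CPM in trunk/ductal-like cells (0.602, 0.266 to 1.36, from 14 and 14 UMIs), and leaving out the 5 highest cells of each library turned the ratio to 1.07.

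The members also differed between classes within 1 library, where the sort was shared. The classes were made from the RNA of the same cells, so these values are a description. In the knockout library, trunk/ductal-like cells had 13 of 33 measured members at least 1.5-fold higher than acinar-like cells and 4 lower, where 33.1% of all genes were higher and 9.19% lower. The 4 lower were Rps27l, Cycs, Perp and Apaf1, and Bcl2, Bcl2l1, Mdm2 and Cdkn1a were among the higher. Rps27l, Cycs and Perp were lower in the control library too, where 15 of 28 members were higher and 4 lower (32.8% and 13.5% of all genes). Against trunk/ductal-like cells, cluster 8 had 5 members higher (Zmat3, Mcl1, Sesn2, Epha2 and Apaf1) and 5 lower (Btg2, Mdm2, Ei24, Ccng1 and Bak1) of 33, where 17.4% and 11.3% of all genes were higher and lower; the members' shares were near these, and the 10 were named after their values were seen. Apaf1 was at 18.2 CPM in cluster 8 and 3.64 in trunk/ductal-like cells (4.99, 1.56 to 25.5), and Mcl1 at 168 and 110.5 (1.52, 1.20 to 1.95). Against acinar-like cells, cluster 8 had 17 of 37 members higher and 4 lower (38.2% and 8.91% of all genes).

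Endocrine-like cells of the knockout library had 16 of 35 members higher than acinar-like cells and 5 lower, where 40.6% of all genes were higher and 17.1% lower. Besides Cdkn1a (6.74-fold, 5.88 to 7.74), Bax was 2.04-fold (1.77 to 2.34) and Trp53inp1 3.76-fold (2.10 to 6.69) higher, and Perp was lower (0.292, 0.115 to 0.624). Mesenchyme-like cells had 15 of 36 members higher than acinar-like cells and 9 lower (38.4% and 14.7% of all genes), with Bcl2 3.74-fold higher (2.63 to 5.38) and Cdkn1a lower (0.305, 0.228 to 0.403). Mesothelium-like cells had 4 of 35 members higher than mesenchyme-like cells and 4 lower (13.5% and 16.6% of all genes), among the lower Bcl2, at 15.01 and 59.8 CPM. In the control library, leukocyte-like cells had 19 of 38 members higher than acinar-like cells and 7 lower (35.3% and 23.9% of all genes), with Mcl1 at 181 against 82.7 CPM and Perp at 2.50 against 43.3 CPM.

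In leukocyte-like cells 38 members were measured, 7 higher (Phlda3, Cd82, Perp, Fas, Plk2, Mdm2 and Sesn2) and 6 lower (Sesn1, Bcl2l11, Polk, Ercc5, Zmat3 and Trp53inp1), where 17.4% of all genes were higher and 20% lower. Gdf15, with 44 control and 0 knockout UMIs, was counted as between, since a 0 stood at 3 UMIs in these calls. The shares of all genes carry the same limit. The class was not alike in the 2 libraries: 24 of the 40 knockout cells but 97 of the 799 control cells stood in cluster 2, led by neutrophil genes, and the other control cells stood in 6 other clusters. Sesn1, a sestrin that restrains growth signalling, was at 87.9 and 14.4 CPM (ratio 0.164, 0.0745 to 0.312), and the control clusters ranged from 32.7 to 146 CPM. Within cluster 2 alone 29 members were measured, 4 higher (Aen, Rps27l, Plk2 and Cdkn1a) and 7 lower, where 17.3% of all genes were higher and 20.7% lower. There Cdkn1a was at 148 and 235 CPM (1.59, 1.20 to 2.09), and Sesn1 was at 41.3 and 5.65 CPM (0.137, 0.0160 to 0.524), from 44 and 2 UMIs. Pmaip1, which was higher in the knockout library over the whole class (78.3 and 110 CPM), was lower there within cluster 2 (118 and 65.0 CPM). Phlda3 (3.49, 1.57 to 7.04, or 1.35 without the 5 highest cells of each library) rested on 10 knockout UMIs, Cd82 (1.86, 1.30 to 2.58) on 40 and Plk2 (1.81, 1.35 to 2.38) on 57. Perp, Fas, Sesn2, Polk, Ercc5, Zmat3 and Trp53inp1 had 2 to 9 UMIs in the knockout cells and intervals that included 1.

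Other genes of the pathway, from lists fixed apart from the members, also held genes past 1.5-fold on both sides in acinar-like cells. Of all genes there, 14.9% were higher and 12.8% lower by that fold. Of 16 other p53 targets measured, 3 were at least 1.5-fold higher and 3 lower. Their median log2 ratio was 0.29, above the medians given earlier for the members and for all genes of this class. Of 12 other p53 regulators 2 were higher and 2 lower, of 22 other apoptosis genes 6 were higher and 4 lower, and of 4 other cyclin-dependent kinase inhibitors 1 was higher and 2 were lower. Past 2-fold with at least 50 UMIs were, on the higher side, Ppm1d, a phosphatase that p53 induces and that shuts its signal off (3.87 and 15.3 CPM, ratio 3.97, 1.58 to 12.8), Trp53i11 (2.70), Ak1 (2.29) and Cdkn1c, which encodes the inhibitor p57 (151 and 399 CPM, 2.64, 2.27 to 3.09). Cdkn1c was at 4893 CPM in mesenchyme-like cells of the knockout library, whose part in the acinar-like level was not tested. On the lower side was Tnfrsf1a, the TNF receptor (0.475).

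The stress lists gave Hspb1, a small heat shock protein, at 40.98 and 134 CPM in acinar-like (3.28, 2.46 to 4.46) and 22.2 and 89.8 CPM in trunk/ductal-like cells (4.05, 2.14 to 8.47). Lower in acinar-like cells past 2-fold were Klf2 (0.226), Cebpb (0.385), Dusp1 (0.388), Zfp36 (0.412) and Fosb (0.470), and Klf2 was also lower in trunk/ductal-like cells (0.374). Of 9 measured genes of the integrated stress response, 0 were higher and 2 lower in acinar-like cells, where 14.9% of all genes were higher and 12.8% lower. In trunk/ductal-like cells 12 other p53 targets gave 3 higher and 1 lower, where 13.7% of all genes were higher and 13.2% lower. Of the 22 mitosis genes, 12 were higher there and none lower, with Tpx2 (3.34), Top2a (2.67) and Nusap1 (2.24) past 2-fold. In acinar-like cells none of the 22 was higher and 4 were lower.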

How the data were processed

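The deposited files were 2 tables of raw UMI counts per gene and cell, which the authors made with Cell Ranger 2.0.0 on mm10, per the submitters' processing notes; these also name Seurat 2.0 and DESeq2 1.14.1, whose output was not used here. Rows were Ensembl genes, matched to mouse symbols with GENCODE M21. Cells under 500 genes or over 10% mitochondrial UMIs were dropped, and 6 doublets per library (Scrublet) were removed. Both libraries were clustered together (scanpy 1.11.5, 2000 variable genes, 30 components, Leiden resolution 1), and clusters were named from fixed marker lists that needed 5 markers at 50 CPM. Counts were summed per class and library; CPM has exact Poisson intervals, ratios exact conditional intervals, shares exact binomial (Clopper-Pearson) intervals. Ratios were taken without a pseudocount, only for genes with at least 20 UMIs over both libraries. For the calls past a fold limit, the shares of all genes and the medians, a 0 in 1 library stood at 3 UMIs there. Where the 2 totals differ much, as in leukocyte-like cells, a gene without knockout UMIs can then count as between or higher. Calculations used numpy 2.4.6 and scipy 1.17.1 and were tested on simulated data. Alternatives, among them edgeR 4.0.16 (TMM) and DESeq2 1.42.0 scaling, are given in the closing section. Of the genes without a symbol, the share of UMIs was 0.0274% and 0.0315%.

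The members and lists were chosen with earlier results of these data known. Named in the text were Trp53, Mdm2 and Cdkn1a everywhere, members past 1.5-fold with at least 20 UMIs in classes of at least 30 cells per library, the 5 highest members, and genes of other lists past 2-fold with 50 UMIs in acinar-like or trunk/ductal-like cells; the other members are given by role group, those with a ratio and interval chosen after their values were seen. The rules on naming clusters were settled after the files were seen.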

Additional observations from a re-analysis of the deposited data

Results flagged for a closer look

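Members whose ratio passed 1.5-fold in opposite directions in 2 classes were marked for a second look; with 1 library per genotype the differences between classes were not tested. Ccng1 had a knockout over control ratio of 0.571 in acinar-like and 3.18 in trunk/ductal-like cells, and the latter rests on 7 control UMIs. Trp53inp1 had ratios of 2.01 in acinar-like, 1.5 in endocrine-like and 0.579 in leukocyte-like cells, each with an interval that included 1. Birc2 had ratios of 0.602 in trunk/ductal-like and 1.5 in endocrine-like cells, from 28 and 29 UMIs in all.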

How the results depend on the processing

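No paired analysis was possible because the 2 sequencing runs of a genotype stood together in 1 table, and for the same reason neither run could be left out. A ratio or share was said to stay when it lay inside the counting interval of the reported value, and a count when it was within 1.5-fold of it. Where UMIs were few this interval was wide: Ccng1 in trunk/ductal-like cells ran from 1.92 to 4.74 and stayed by this rule throughout. Of the other results under all alternatives, 183 counts, shares and ratios stayed and 34 moved. Of the single named members, 421 stayed, 23 moved and 14 changed side. The cause of these moves was not tested. The knockout over control ratio stayed between 1.31 and 1.71 for Trp53 and between 1.20 and 1.65 for Cdkn1a in acinar-like cells; the 1.65 came from leaving out the 5 highest cells of each library. The Cdkn1a ratio ran from 1.06 to 1.75 in trunk/ductal-like, 1.20 to 2.96 in endocrine-like and 0.919 to 1.59 in leukocyte-like cells. Some members passed the 1.5-fold limit in the text but not under every alternative: Trp53inp1 (1.38 to 3.23) and Bid (0.522 to 0.707) in acinar-like cells, Bak1 (1.21 to 2.38) and Bid (0.481 to 0.885) in trunk/ductal-like cells, and Trp53inp1 (1.46 to 2.75), Bax (1.31 to 2.27), Rps27l (1.13 to 1.77), Bcl2l1 (0.453 to 0.991), Bad (0.379 to 0.85) and Ei24 (0.504 to 0.770) in endocrine-like cells. Depth limits the 8 members under 20 UMIs in acinar-like cells and the 14 in trunk/ductal-like cells, and the 20 control endocrine-like cells limit that class.

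The 3 members higher in acinar-like cells became 6 without the 20% of cells richest in leukocyte and mesenchyme markers (an alternative chosen after seeing the data), and the 3 lower became 1 at a 2-fold limit. In trunk/ductal-like cells the 3 higher became 7 with at most 5% mitochondrial UMIs, 8 at clustering resolution 0.5 or with cluster 8 joined, 6 with the mean of the cells' own CPM or without those 20% of cells, and 1 with a floor of 50 UMIs; the 2 lower became 5 with 5% mitochondrial UMIs, 4 at resolution 0.5 or with cluster 8 joined, 6 with a floor of 5 UMIs and 0 with a floor of 50 UMIs or a 2-fold limit. In endocrine-like cells the 6 higher became 2 with 5% mitochondrial UMIs or with edgeR's TMM or DESeq2's scaling, 3 with a floor of 50 UMIs and 0 at 2-fold; the 5 lower became 2 with 5% mitochondrial UMIs, at resolution 2, with a floor of 50 UMIs or at 2-fold, and 9 with a floor of 5 UMIs. In leukocyte-like cells the 7 higher became 4 with each library clustered alone or in cluster 2 alone and 1 at 2-fold, and the 6 lower became 3 at resolution 2 or with each library clustered alone.

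The share of acinar-like cells with a Cdkn1a UMI became 48.9% in the control library when thinned to 8000 UMIs. In the knockout library it became 69.2% at 8000 UMIs, 23.2% at 3000 UMIs and 29.8% with 5% mitochondrial UMIs. Each of these settings also drew the random thinning anew, and the part of the new draw was not tested. Single members changed side as follows. Without the 5 highest cells of each library, Birc2 was at 1.07 in trunk/ductal-like cells, Sesn1 at 1.58 in endocrine-like cells, and Sesn2 at 0.717, Fas at 0.798 and Perp at 0 in leukocyte-like cells. Leaving out 5 cells takes a larger share of the library with fewer cells in a class, which by itself can shift such a ratio. In cluster 2 alone, Polk was at 1.504 and Fas at 0.602. With each library clustered alone, Plk2 was at 0.841 in endocrine-like and Zmat3 at 1.138 in leukocyte-like cells; Zmat3 was also at 1.17 with 5% mitochondrial UMIs and 1.06 at resolution 0.5. Trp53inp1 in leukocyte-like cells was at 1.12 at resolution 0.5, 1.07 at resolution 2 and 1.03 with the mean of the cells' own CPM. Restricting the control to cells with Xist and no Y-linked UMI could not be run, since 1 acinar-like and 1 trunk/ductal-like cell remained.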
